A study of Bos taurus with 8 samples.

Results

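Serpins are a superfamily of proteins named for the inhibition of serine proteases, and 35 of the 15008 distinct probes on a 1-colour cattle microarray were taken as its members because the gene name in the array files began with SERPIN. These 35 probes carried 34 gene names, since SERPINA3-7 had 2 probes, of 14952 gene names on the array. Of the 35, 28 were bright enough to be tested. Liver of 4 bulls was compared between 4 g and 0 g of egg yolk immunoglobulin holding antibody against lipopolysaccharide (LPS). Animals were paired by label, and no serpin passed the adjusted threshold. SERPINE2 was the only tested serpin that was lower at 4 g in all 4 animals, as were 2.1% of all tested probes. Its probe was dim, and its log2 difference went from −1.03 to −0.19 with another background correction (normexp). Signs were opposite in cattle 19 and 20 for 24 of 28 serpins, against 75.7% of all tested probes. These are the animals with 1 dim array each, and there the serpin differences followed the position of the probe along the transcript.

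A serpin holds an exposed reactive loop that a target protease cuts as if it were a substrate. The loop then inserts into the body of the serpin and traps the protease, so that each inhibitor molecule is used once. The liver secretes most serpins of blood plasma, which restrain elastase, clotting factors, plasmin and complement proteases, and several of them are acute phase proteins. Clade B serpins lack a usual secretion signal and act mostly inside cells, and some members, such as the hormone carriers and the collagen chaperone HSP47, inhibit no protease. Cattle carry several copies of SERPINA3, whose human counterpart is alpha-1-antichymotrypsin, an inhibitor of cathepsin G.

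The samples came from a trial of 11 Holstein bull cattle with a rumen fistula, aged 5 to 6 months and weighing 164 ± 14 kg (the kind of error is not named), in a Latin square with doses of 0, 2 and 4 g. Every animal, controls included, ate hay for 11 days, then concentrate and soybean flakes (50% each) for 2 days as a challenge with subacute ruminal acidosis (SARA), in which the rumen turns acid and bacteria shed LPS, and then hay again. The 4 g group received 4 g of egg yolk immunoglobulin holding anti-LPS antibody into the rumen per head and day for 14 days, and the 0 g group was the control. Liver was sampled 2 days after the challenge from cattle 19, 20, 23 and 24, each with 1 array at 4 g and 1 array at 0 g, which gives 4 arrays per group and 8 in all. What the control animals received in place of the yolk, and the period in which each animal received each dose, are not in the labels, and the 2 g group was not analysed here.

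Levels are log2 of the processed spot brightness minus the 75th percentile of that array, so that 0 marks the 75th percentile and 1 unit is a doubling. A level can be compared between arrays for 1 probe, but not between probes. The arrays differed in brightness. The 75th percentile was 125.6 on the 4 g array of cattle 19 and 126.0 on the 0 g array of cattle 20, and between 217.8 and 310.6 on the other 6 arrays. Between 64.45% and 80.38% of all probes were well above background, and between 27 and 30 of the 35 serpin probes. The label names liver while the extraction protocol names rumen epithelium: of 25 hepatocyte markers on the array, 22 or 23 were well above background on every array, with list means of 2.82 to 3.23, against 8 to 11 of 22 rumen epithelium markers, with list means of −5.73 to −4.38.

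Arrays stood apart from their labels in 3 ways. On the 0 g array of cattle 23, all 20 pancreatic acinar markers lay more than 2 log2 units above every other array (list mean 6.65, against −5.07 to −3.40 elsewhere). On the 0 g array of cattle 19, 3 of 22 rumen and 2 of 17 squamous epithelium markers did so, among them the keratin KRT6B at 0.56 and the inhibitor A2ML1 at −0.64. Across all probes, 14 had 2 levels at least 2.5 log2 units apart. Of these, 8 separated cattle 19 from cattle 20 with both arrays of each animal on the same side, while 0 separated cattle 23 from cattle 24 in this way and 6 separated the 4 g arrays of cattle 23 and 24 from their 0 g arrays. An exchange of the numbers 23 and 24 within a dose would leave these 6 as they are. The animal labels, the dose labels or both are therefore uncertain for the arrays labelled 23 and 24, and the cause was not tested. A fit without pairing still uses the dose labels. Values for cattle 19 and 20 alone and without pairing are given where they change a result.

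The probes that carry the results are shown here 5′ to 3′ as the array files print them, each 60 bases long, with coordinates of the cattle assembly UMD 3.1. The start is the position of the probe in its transcript as given in the files, taken to count from the 5′ end. The capitals mark a run of 28 bases that the probes of SERPINA3 and SERPINA3-2 share. Both of these probes span more of the genome than their own length.
SERPINA3 (start 597, chr21:60930248-60932142, plus strand): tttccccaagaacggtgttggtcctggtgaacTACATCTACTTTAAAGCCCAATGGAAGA
SERPINA3-2 (start 623, chr21:59824972-59827439, plus strand): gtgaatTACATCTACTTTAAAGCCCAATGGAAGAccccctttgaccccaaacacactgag
SERPINA3-6 (start 971, chr21:60933585-60933644, plus strand): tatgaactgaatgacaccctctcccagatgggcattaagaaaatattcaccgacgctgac
SERPINA3-7 (start 702, chr21:61690189-61690248, plus strand): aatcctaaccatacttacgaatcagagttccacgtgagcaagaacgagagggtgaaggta
SERPINA3-7 (start 1177, chr21:60964638-60964697, plus strand): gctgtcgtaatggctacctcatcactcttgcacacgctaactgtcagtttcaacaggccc
SERPINB6 (start 515, chr23:50615262-50615321, plus strand): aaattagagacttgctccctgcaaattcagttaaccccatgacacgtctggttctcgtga
SERPIND1 (start 694, chr17:74227184-74227243, plus strand): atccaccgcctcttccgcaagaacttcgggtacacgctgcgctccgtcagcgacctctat
SERPINE2 (start 1305, chr2:112870537-112871752, minus strand): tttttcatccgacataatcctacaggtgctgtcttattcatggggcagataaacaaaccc
The SERPINA3 set is shown because its members are near copies: in the 34 bases where the first pair of probes overlaps, they differ at 1 base. The files place the 2 SERPINA3-7 probes 725551 bases apart, so they need not read the same copy. The probes named SERPINA3, SERPINA3-6 and SERPINA3-3 lie within 4913 bases of each other on chromosome 21, and an array cannot tell cross-hybridising copies apart. Values of the SERPINA3 copies are given by probe for that reason. SERPIND1, SERPINB6 and the first SERPINA3-7 probe are shown for the size of their differences in single animals, and SERPINE2 for its direction.

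The first question was whether serpin transcripts differed between 4 g and 0 g within the animals. In the limma fit with the animal as a block, 0 of 28 serpins passed an adjusted p of 0.05, as did 0 of all 10985 tested probes (0%), and the adjusted p was 1 for each serpin. At an unadjusted p under 0.05 there was 1 serpin of 28, SERPINE2, against 120 of all tested probes (1.09%). These counts turned on single animals. Without cattle 19 there were 4 serpins (SERPINE2, SERPINA10, SERPINB6 and the SERPINA3-7 probe at 702) and 408 probes, without cattle 20 there were 1 and 340, and without cattle 23 there were 1 and 57, each with 0 past the adjusted threshold. By sign, 12 serpins were higher and 16 lower at 4 g, and their median log2 difference was −0.06, against 0.02 over all tested probes. The 95% interval lay within 1 log2 unit of 0 for 14 of the 28 serpins, against 64.2% of all tested probes. For the remaining 14 serpins the interval reached past 1 log2 unit on at least 1 side, so that it includes differences of more than 2-fold on that side.

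**Figure D1:**
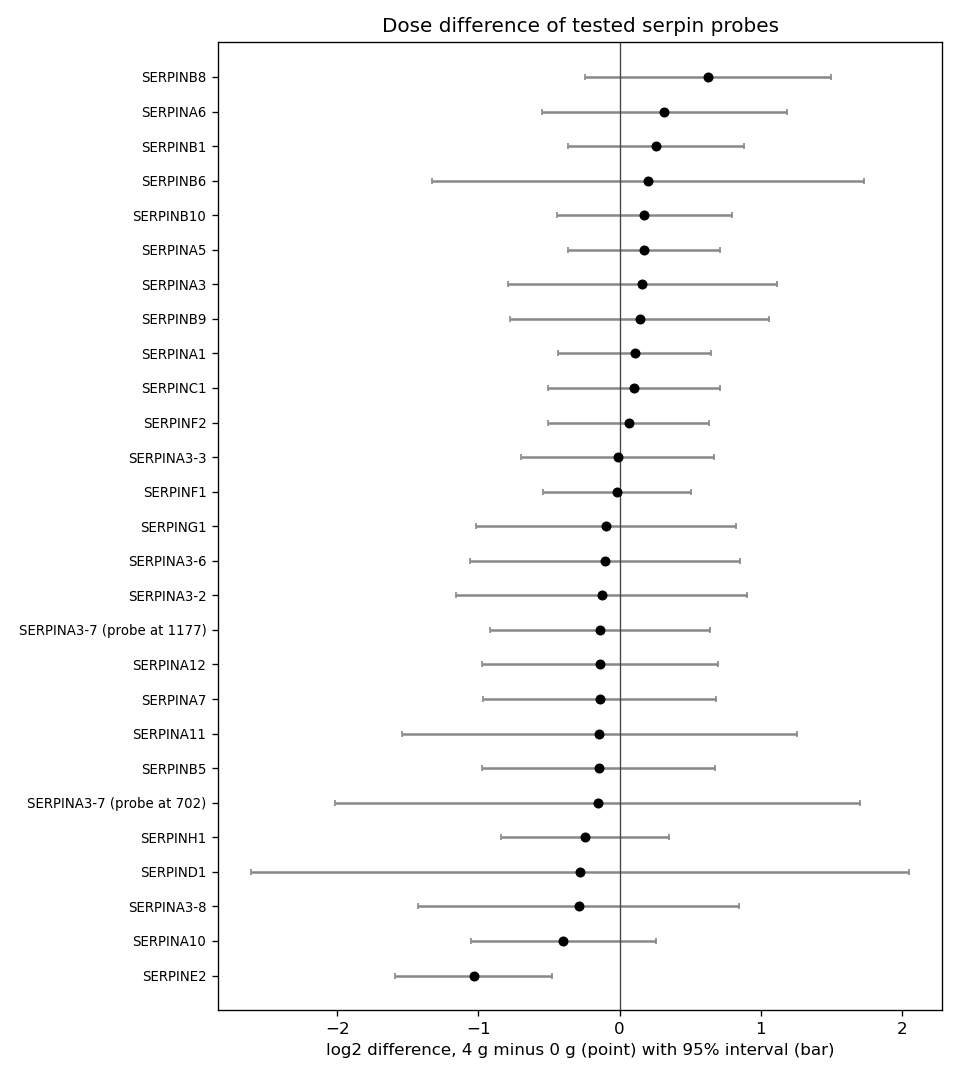
Log2 difference, 4 g minus 0 g, for 27 of the 28 tested serpin probes (points) with its 95% interval from limma with the animal as a block (bars), n = 4 animals. Only the interval of SERPINE2 lies on 1 side of 0, and SERPIND1 and the SERPINA3-7 probe at 702 have the widest intervals.

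SERPINE2 encodes protease nexin-1, an inhibitor of thrombin and urokinase that is made by many cell types and held at the cell surface. Its level was −5.71, −5.22, −4.76 and −5.24 at 4 g in cattle 19, 20, 23 and 24, against −4.45, −3.95, −3.90 and −4.50 at 0 g. All 4 g values lay below all 0 g values, a separation in this direction seen for 0.264% of all tested probes, and the probe was lower at 4 g in 4 of 4 animals, as were 2.1% of all tested probes. The log2 difference was −1.03 (SE 0.23, 95% interval −1.59 to −0.48), with an unadjusted p of 0.00365 and an adjusted p of 1 in limma. The probe was dim: its spot cleared the background on 3 of the 4 g arrays, the exception being cattle 19, and on all 4 of the 0 g arrays. With the normexp background correction the difference was −0.19, with an unadjusted p of 0.678. For cattle 19 and 20 alone it was −1.26 with an unadjusted p of 0.0709, and without pairing −1.03 with an unadjusted p of 0.00314, both from limma over all tested probes.

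Genes of stellate cells, fibroblasts, smooth muscle and pericytes, cells that also express SERPINE2, were read beside it. Of 12 tested smooth muscle and pericyte genes, 3 were higher at 4 g and 9 lower (median −0.70). An unadjusted p under 0.05 was seen for 5 of the 12, against 1.09% of all tested probes. Medians of this list were −0.05, −1.03, −0.68 and −0.75 in cattle 19, 20, 23 and 24, where SERPINE2 differed by −1.26, −1.27, −0.87 and −0.73. Of 21 tested stellate and fibroblast genes, 17 were lower and 4 higher, with a median of −0.35, and 4 of the 21 had an unadjusted p under 0.05. No gene of either list passed the adjusted threshold. Examples are the pericyte proteoglycan CSPG4 at −1.12 (SE 0.24), the intermediate filament desmin (DES) at −1.13 (SE 0.26) and the collagen chain COL1A2 at −0.94 (SE 0.27). DES and TAGLN were among the genes with the smallest p in both lists, so the counts of the lists overlap. The summed list stood at means of −3.34 to −2.28 at 4 g and −2.70 to −1.28 at 0 g for smooth muscle and pericytes, ranges that overlap. The part of these cells in the SERPINE2 result was not tested, and in bulk tissue fewer cells of a type and less RNA per cell cannot be told apart.

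SERPINB8, an intracellular serpin that inhibits furin in human, was the only other member with a log2 difference of at least 0.58 in size, which 5.04% of all tested probes reached. Its level was 0.01, −0.81, −0.22 and −0.80 at 4 g in cattle 19, 20, 23 and 24, against −0.47, −0.91, −2.09 and −0.85 at 0 g. It was higher at 4 g in 4 of 4 animals (3.13% of all tested probes), but by 0.06 to 0.48 in cattle 19, 20 and 24 and by 1.87 in cattle 23, whose 0 g array is the one with the pancreatic transcripts. The log2 difference was 0.63 (SE 0.36, unadjusted p 0.13 in limma). Without the 0 g array of cattle 23 and without pairing it was 0.29.

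The next question was how the members varied between animals, since the differences of single animals were far larger than the mean differences. In cattle 19, serpin differences ran from −4.14 for SERPIND1 to 1.33 for SERPINB9, while their medians over the 28 probes were −0.33, 0.15, −0.07 and 0.41 in cattle 19, 20, 23 and 24. The signs in cattle 19 and 20 were opposite for 24 of 28 serpins, against 75.7% of all tested probes. A difference of at most −0.58 in cattle 19 together with at least 0.58 in cattle 20 was seen in 7 of 28 serpins, against 13.9% of all tested probes. These are the animals with the dim arrays, 4 g in cattle 19 and 0 g in cattle 20.

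**Figure D2:**
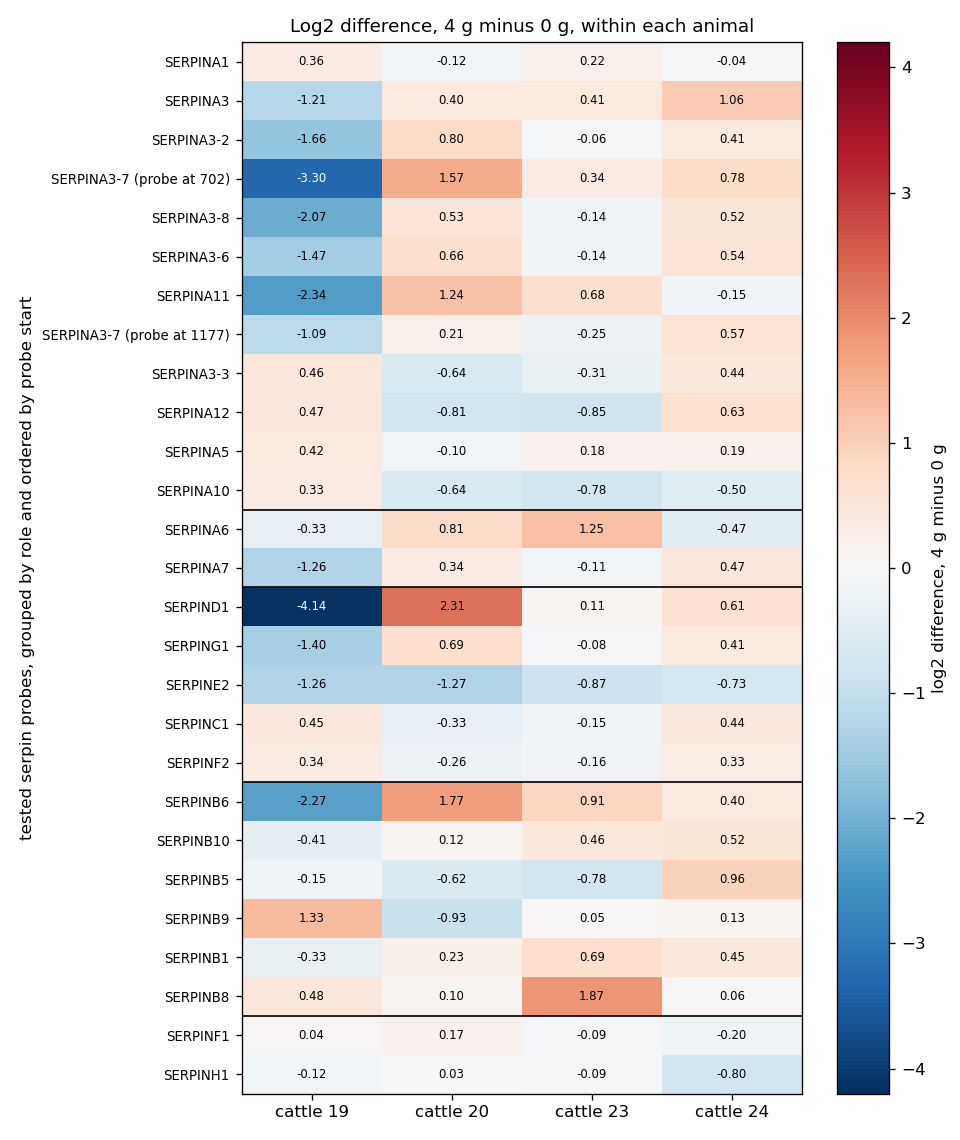
Log2 difference, 4 g minus 0 g, within each of the 4 animals (columns) for 27 of the 28 tested serpin probes (rows), grouped from top to bottom as plasma inhibitors of clade A, hormone carriers, inhibitors of coagulation, fibrinolysis and complement, intracellular clade B, and matrix and other serpins, and ordered within a group by probe start. In cattle 19 the probes with low starts are blue (lower at 4 g), with −4.14 for SERPIND1 at the extreme, and in cattle 20 the same probes are red.

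The position of the probe ordered these differences. Across the 28 serpin probes, the Spearman correlation of the probe start with the 4 g minus 0 g difference was 0.72 in cattle 19 and −0.67 in cattle 20, against −0.19 in cattle 23 and −0.35 in cattle 24. Over all 10985 tested probes it was 0.18, −0.09, −0.01 and −0.04 in the same animals. These correlations are across probes that share the same 2 arrays per animal and are given as a description. Of the 28 serpin probes, 7 are of SERPINA3 and its near copies and may read the same transcripts. The start is taken to count from the 5′ end, and transcript lengths were not used, so the distance to the 3′ end is not known for each probe.

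The serpins were split at the median start of 1258.5. Among the 14 probes that start earlier (468 to 1212), 13 were lower at 4 g in cattle 19 and higher at 4 g in cattle 20. The exception was SERPINA1, whose probe has the lowest start of the tested serpins. Of these 14 early probes, 6 are of SERPINA3 and its near copies, which are not separate observations, and all 6 showed that combination. Among the 14 that start later (1305 to 2846), 2 showed that combination, SERPINB1 and SERPINH1. For all tested probes the shares were 41.1% of 4699 early probes and 28.5% of 6286 late probes. The median differences of the early serpins were −1.44, 0.68, 0.16 and 0.49 in cattle 19, 20, 23 and 24, and those of the late serpins were 0.34, −0.29, −0.12 and 0.16.

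**Figure D3:**
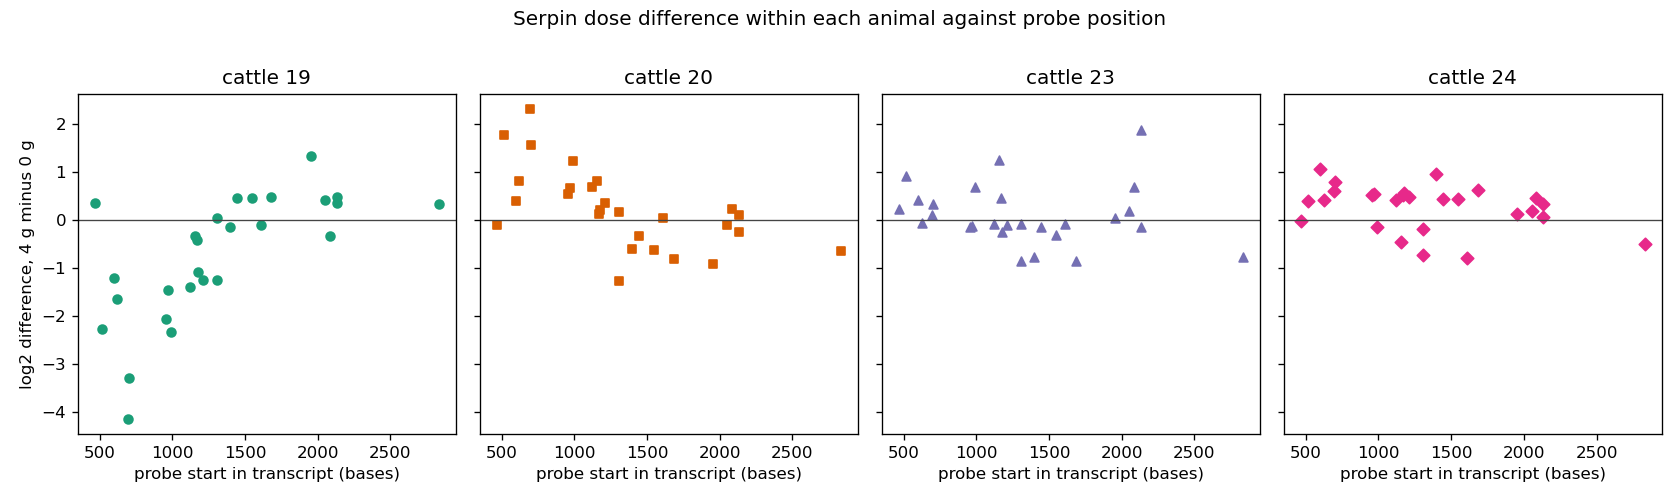
Log2 difference, 4 g minus 0 g, within each animal (one panel each) against the start of the probe in its transcript in bases, for 27 of the 28 tested serpin probes (points). In cattle 19 the early probes reach down to −4.14 while the late ones lie mostly above 0, in cattle 20 the order is turned round, and in cattle 23 and 24 it is weak.

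A hexamer that lies near the 3′ end of many transcripts, AATAAA, the usual polyadenylation signal, was looked for in the probe letters as printed, on that strand alone. It was found in 4 of 35 serpin probes (11.4%), against 9.51% of all probes on the array, in SERPINA3-3, SERPINA5, SERPINA12 and SERPINB5. A match is a description of the letters. The median differences of these 4 probes were 0.44, −0.63, −0.55 and 0.53 in cattle 19, 20, 23 and 24. Over all tested probes the median was 0.27 in cattle 19 and −0.18 in cattle 20 with the hexamer, and 0.06 and −0.03 without it.

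Genes with 2 probes allow the same reading within 1 gene name. For SERPINA3-7 the probe starting at 702 differed by −3.30 in cattle 19 and 1.57 in cattle 20, and the probe starting at 1177 by −1.09 and 0.21. Outside the family, 15 genes had 2 tested probes that start at least 300 bases apart. The earlier probe had the lower difference in cattle 19 in 9 of these 15, and the higher difference in cattle 20 in 8 of 15. Both held in 8 of 15. The counts for each animal lie near an even split, so these genes do not clearly show the order seen across the serpin probes.

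The plasma inhibitors of clade A had 13 probes, of which 12 were tested. At 4 g, 3 were higher and 9 lower, with differences from −0.40 to 0.17 and none past the adjusted threshold. This count includes the probe named SERPINA5, whose identity is in doubt, and without it 2 of 11 were higher and 9 lower, from −0.40 to 0.16. SERPINA1 encodes alpha-1-antitrypsin, the main plasma inhibitor of neutrophil elastase. Its level was 5.74, 4.88, 4.64 and 4.66 at 4 g in cattle 19, 20, 23 and 24, against 5.38, 5.00, 4.42 and 4.69 at 0 g, and the groups overlapped. It averaged 4.98 ± 0.52 at 4 g and 4.87 ± 0.41 at 0 g (SD, n = 4 each), a log2 difference of 0.11 (SE 0.22). Cattle 19 was highest at both doses. SERPINA1 had the smallest p between animals of all tested serpins, 0.0607 unadjusted and 0.985 adjusted in the limma F-test.

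SERPINA3 and its copies gave 7 probes under 6 gene names. All 6 that start before 1258.5 were lower at 4 g in cattle 19 and higher in cattle 20, and the one that starts later, SERPINA3-3, did the reverse. All 7 were higher at 4 g in cattle 24, and 5 of 7 were lower in cattle 23. The SERPINA3 probe stood at 3.79, 4.75, 4.21 and 5.19 at 4 g in cattle 19, 20, 23 and 24, against 5.00, 4.36, 3.80 and 4.13 at 0 g, a log2 difference of 0.16 (SE 0.39). It was higher at 4 g in 3 of 4 animals, and its groups overlapped.

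The SERPINA3-7 probe starting at 702 had levels of 3.17, 6.07, 5.77 and 6.17 at 4 g, against 6.47, 4.50, 5.43 and 5.39 at 0 g, in the same order of animals. The probe starting at 1177 had 7.10, 8.10, 7.35 and 8.04 at 4 g, against 8.19, 7.89, 7.59 and 7.47 at 0 g. In both, the 4 g array of cattle 19 was the lowest of its group and the 0 g array of cattle 19 the highest of its group. Their log2 differences were −0.15 (SE 0.77) and −0.14 (SE 0.32), so that the spread between animals was wider for the earlier probe. With the animals labelled 23 and 24 alone the first was 0.56, and without the 2 dimmest arrays and without pairing it was 0.24.

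The other SERPINA3 copies had this order too, with the exception of SERPINA3-3. SERPINA3-2 stood at 4.80, 6.06, 6.07 and 6.65 at 4 g in cattle 19, 20, 23 and 24, against 6.46, 5.25, 6.13 and 6.24 at 0 g. SERPINA3-6 stood at 4.46, 6.10, 5.35 and 5.98 at 4 g, against 5.93, 5.45, 5.49 and 5.45 at 0 g. On both probes the lowest of the 8 values was the 4 g array of cattle 19. SERPINA3-8 stood at 0.76, 2.56, 2.23 and 3.00 at 4 g, against 2.83, 2.02, 2.37 and 2.48 at 0 g. SERPINA3-3 stood at 8.17, 7.53, 7.26 and 7.68 at 4 g, against 7.71, 8.17, 7.57 and 7.25 at 0 g. On SERPINA3-8 the 4 g array of cattle 19 was again the lowest of 8, whereas on SERPINA3-3 it shared the top with the 0 g array of cattle 20. The log2 differences of these 4 copies were −0.13, −0.10, −0.29 and −0.01, each smaller than its SE.

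SERPINA10, which inhibits factor Xa together with protein Z, had the second smallest p among the lower serpins. Its level was 1.91, 0.88, 0.75 and 1.23 at 4 g in cattle 19, 20, 23 and 24, against 1.58, 1.52, 1.54 and 1.73 at 0 g. It was lower in 3 of 4 animals and higher in cattle 19, with a log2 difference of −0.40 (SE 0.27). SERPINA12, or vaspin, a serpin known from fat tissue, stood at 0.89, 0.30, −0.53 and 0.32 at 4 g, against 0.42, 1.11, 0.32 and −0.31 at 0 g, and its groups overlapped. The probe named SERPINA5 in the files matched LOC338050 in the RefSeq gene table by its accession, so its values are given under the files' name and its function is not described. It was 6.75, 6.18, 6.25 and 6.23 at 4 g, against 6.33, 6.29, 6.07 and 6.04 at 0 g, a log2 difference of 0.17 (SE 0.22). SERPINA11 differed by −2.34 in cattle 19 and 1.24 in cattle 20, with its lowest level of the 8, 0.88, on the 4 g array of cattle 19.

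The hormone carriers of the family inhibit no protease. SERPINA6, corticosteroid-binding globulin, stood at 3.55, 4.05, 3.43 and 2.88 at 4 g in cattle 19, 20, 23 and 24, against 3.88, 3.23, 2.18 and 3.35 at 0 g. It was higher in cattle 20 and 23 and lower in cattle 19 and 24, and the lowest value came from the 0 g array of cattle 23. Its log2 difference was 0.32 (SE 0.36), and −0.01 without that array and without pairing. SERPINA7, thyroxine-binding globulin, stood at 3.08, 4.05, 4.05 and 4.74 at 4 g, against 4.34, 3.71, 4.17 and 4.27 at 0 g, a log2 difference of −0.14 (SE 0.34). Among 9 tested genes of hormone carriage and response, 7 were higher and 2 lower, with none called, such as transthyretin (TTR) at 0.08 (SE 0.27) and the glucocorticoid receptor NR3C1 at 0.30 (SE 0.25).

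Of the 7 serpins that restrain coagulation, fibrinolysis and complement, 6 were tested, with 3 higher and 3 lower at 4 g and none called. SERPINC1, antithrombin, which blocks thrombin and factor Xa, stood at 7.90, 7.58, 7.31 and 7.68 at 4 g in cattle 19, 20, 23 and 24, against 7.45, 7.91, 7.45 and 7.25 at 0 g. Its groups overlapped and the log2 difference was 0.10 (SE 0.25), with a 95% interval of −0.50 to 0.71. SERPINF2, alpha-2-antiplasmin, the main inhibitor of plasmin, stood at 7.88, 7.37, 7.12 and 7.44 at 4 g, against 7.54, 7.63, 7.28 and 7.11 at 0 g, a log2 difference of 0.06 (SE 0.24).

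SERPIND1, heparin cofactor II, which inhibits thrombin, had the widest interval of the tested serpins. It stood at −1.62, 2.22, 1.56 and 2.28 at 4 g in cattle 19, 20, 23 and 24, against 2.52, −0.09, 1.46 and 1.67 at 0 g. The 2 lowest values came from the 2 dimmest arrays, and the other 6 lay between 1.46 and 2.52. The log2 difference was −0.28 (SE 0.97, 95% interval −2.61 to 2.05), and 0.14 without those 2 arrays and without pairing. SERPING1, the C1 inhibitor of complement and of the contact system, followed the same order, with 2.65, 3.95, 3.68 and 4.04 at 4 g, against 4.05, 3.26, 3.76 and 3.62 at 0 g. Its log2 difference was −0.09 (SE 0.38).

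**Figure D4:**
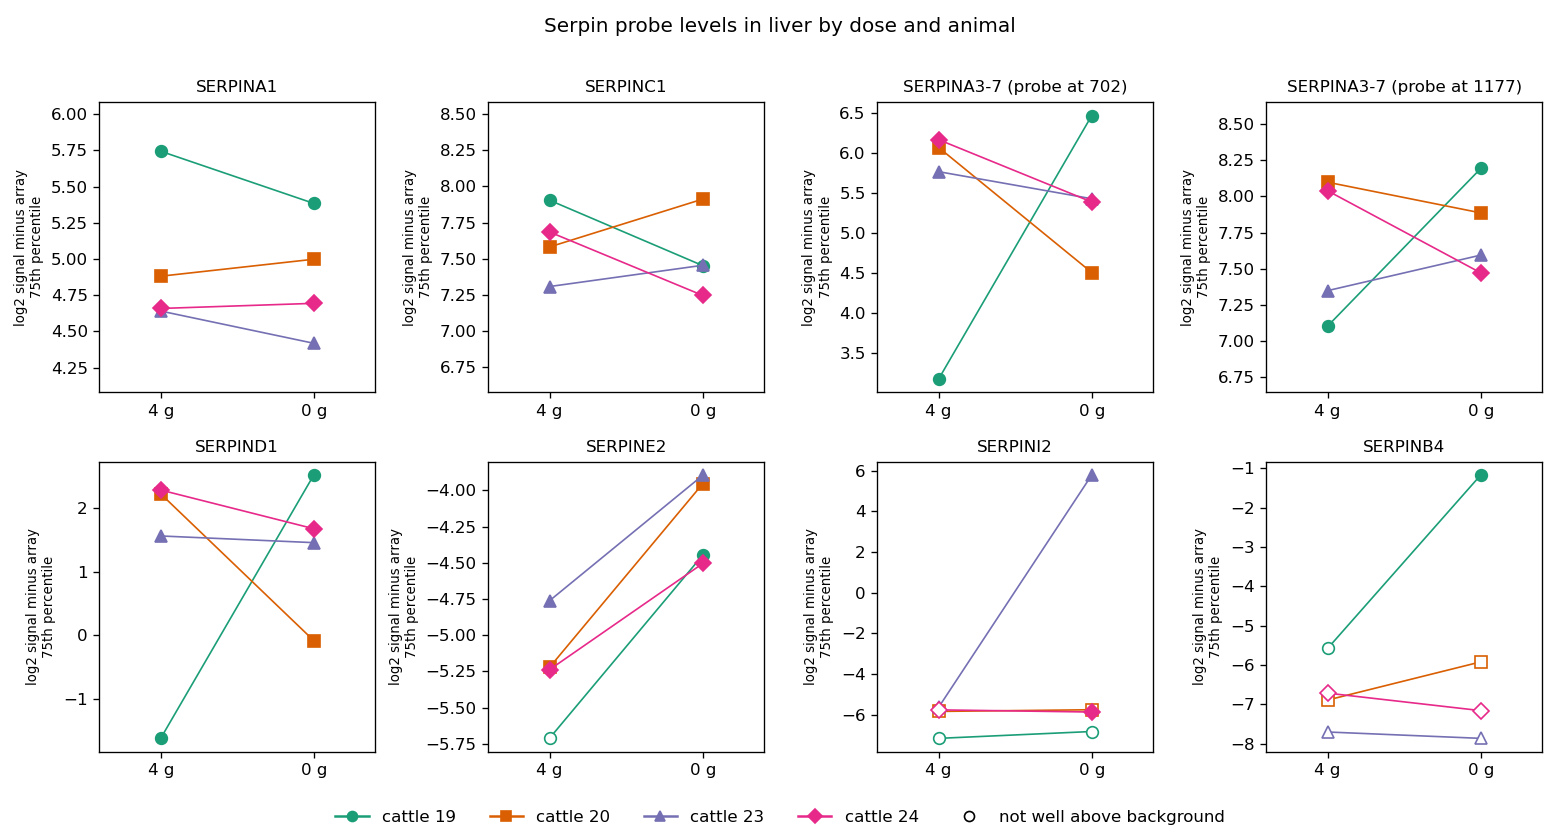
Level of 8 serpin probes (log2 signal minus the 75th percentile of the array) at 4 g and at 0 g, with 1 line per animal and open symbols where the spot was not well above background. SERPINE2 is lower at 4 g on all 4 lines, SERPIND1 and the SERPINA3-7 probe at 702 cross between cattle 19 and 20, and SERPINI2 and SERPINB4 stand out on a single 0 g array each (5.78 and −1.17).

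Genes of the systems in which these serpins act, proteases and other proteins, did not pass the threshold either. All 16 tested coagulation genes lay well above background on every array, with 11 higher and 5 lower at 4 g, a median of 0.07 and none called. Prothrombin (F2) differed by 0.00 (SE 0.29), factor X (F10) by 0.07 (SE 0.27) and factor XI (F11) by 0.69 (SE 0.31). Of 7 tested fibrinolysis genes, 2 were higher and 5 lower, and their medians of −1.57 in cattle 19 and 0.68 in cattle 20 had the signs of the early serpins. Within this list plasminogen (PLG), with a probe start of 2644, differed by 0.11 and −0.34 in those animals, whereas the annexin ANXA2, with a start of 170, differed by −1.98 and 2.15. Of 11 tested proteases that cells release or carry and that serpins act on, 1 was higher and 10 lower, with list medians of −0.45, 0.46, −0.70 and 0.24 in cattle 19, 20, 23 and 24, and the kallikrein KLK1 differed by −10.88 in cattle 23, on the array with the pancreatic transcripts. Of 6 tested complement and contact genes, 4 were higher and 2 lower. Of 20 tested inhibitors of other families, 11 were higher and 9 lower. An unadjusted p under 0.05 was seen for 1 of the 20, against 1.09% of all tested probes, the cystatin CST6 at −0.79 (SE 0.32).

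Of the acute phase genes that respond to interleukin-6, 18 were tested, with 13 lower and 5 higher at 4 g, a median of −0.07 and none called. Of the 18, 2 had an unadjusted p under 0.05 in limma, against 1.09% of all tested probes. Haptoglobin (HP), a major acute phase protein of cattle, differed by −0.91, −1.51, −2.69 and 1.52 in cattle 19, 20, 23 and 24, and serum amyloid P (APCS) by −0.01, −0.45, −1.51 and −1.58. The iron hormone hepcidin (HAMP) differed by −0.93 (SE 0.35). Of the 7 probes of SERPINA3 and its copies, 6, 1, 5 and 7 had the sign of HP in cattle 19, 20, 23 and 24.

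The intracellular clade B had 9 probes, of which 6 were tested, with 5 higher and 1 lower at 4 g. SERPINB1, an inhibitor of neutrophil elastase and cathepsin G, stood at 2.42, 2.89, 2.82 and 2.73 at 4 g in cattle 19, 20, 23 and 24, against 2.75, 2.66, 2.13 and 2.29 at 0 g. It was higher in 3 of 4 animals, with a log2 difference of 0.26 (SE 0.26), and its groups overlapped. SERPINB6 stood at −0.44, 1.60, 1.82 and 1.67 at 4 g, against 1.83, −0.17, 0.91 and 1.27 at 0 g, and its 2 lowest values again came from the 2 dimmest arrays. SERPINB9, the inhibitor of granzyme B, went the other way, with −3.31, −3.77, −3.60 and −3.75 at 4 g, against −4.64, −2.84, −3.64 and −3.88 at 0 g. Its probe starts at 1956, among the late ones. The log2 differences of SERPINB6 and SERPINB9 were 0.20 (SE 0.63) and 0.14 (SE 0.38).

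SERPINB5, or maspin, which is known from epithelium and is not an inhibitor, stood at −0.89, −1.15, −2.08 and −1.18 at 4 g, against −0.74, −0.54, −1.30 and −2.14 at 0 g. The arrays of cattle 19 and 20 were the higher ones at both doses, except that the 4 g arrays of cattle 20 and 24 were close. The p between animals was 0.207, unadjusted, in limma. SERPINB10 lay between −1.63 and −0.87 on all 8 arrays, with a log2 difference of 0.17 (SE 0.26). The neutrophil list, read beside clade B because neutrophils hold its targets, had 7 tested genes, 2 higher and 5 lower, with ELANE at −0.26 (SE 0.23).

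The remaining tested members were SERPINF1 and SERPINH1. SERPINF1, pigment epithelium-derived factor, which restrains blood vessel growth, stood at 6.07, 5.71, 5.76 and 5.66 at 4 g in cattle 19, 20, 23 and 24, against 6.04, 5.54, 5.85 and 5.85 at 0 g. It had the narrowest interval of the serpins, −0.54 to 0.51, around a difference of −0.02. SERPINH1 is HSP47, the chaperone that helps collagen fold. It stood at −1.99, −2.43, −1.82 and −2.73 at 4 g, against −1.87, −2.46, −1.74 and −1.92 at 0 g, with a log2 difference of −0.24 (SE 0.25). Of 16 tested genes of collagen and its folding, 11 were lower and 5 higher, none called, such as the crosslinking enzyme LOX at −0.80 (SE 0.27) and the prolyl isomerase FKBP10 at −0.54 (SE 0.23). Of the 16, 2 had an unadjusted p under 0.05 in limma, against 1.09% of all tested probes.

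Between animals, 0 of 28 serpins passed the F-test of limma after adjustment (0% of all tested probes) and 0 had an unadjusted p under 0.05, against 2.72% of all tested probes. This test uses the animal labels, which are uncertain for cattle 23 and 24.

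Of the 35 serpin probes, 7 were not tested because fewer than 4 arrays were well above background. SERPINB2, SERPINB7 and SERPINE3 were well above background on 0 of 8 arrays. SERPINI2, a serpin first described in pancreas in human, stood at −7.16, −5.84, −5.63 and −5.76 at 4 g in cattle 19, 20, 23 and 24, against −6.82, −5.75, 5.78 and −5.87 at 0 g. The value of 5.78 stands on the array with the pancreatic acinar transcripts, on which 20 of 20 acinar markers were well above background, against 7 to 17 on the others. SERPINI2 was also well above background on the 4 g array of cattle 23 and the 0 g array of cattle 24. SERPINI1, or neuroserpin, was well above background on the same 3 arrays, and its highest level, −2.88, was again on the 0 g array of cattle 23, against −7.62 to −5.29 on the other 7. Its 4 g minus 0 g differences were −1.24, −0.94, −2.41 and −0.81 in cattle 19, 20, 23 and 24. In the limma fit without a probe filter its log2 difference was −1.35 (unadjusted p 0.00773), and it did not pass the adjusted threshold.

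SERPINB4, a squamous cell carcinoma antigen in human, was well above background on the 0 g array of cattle 19 alone. It stood at −1.17 there and at −7.86 to −5.58 on the other 7 arrays. That array is the one on which KRT6B, KRT6A, CA1 and A2ML1 stood more than 2 log2 units above the others, while 10 of 17 squamous markers were well above background there, against 6 to 8 elsewhere. No spot of SERPINB4 at 4 g was well above background, and no fold is given. SERPINA14, the uterine serpin of ruminants, was well above background only in cattle 20, at −5.21 at 4 g and −2.11 at 0 g, against −7.69 to −5.70 in the other animals. None of the 7 untested probes was in the main fit, and none passed the adjusted threshold in the fit without a probe filter. The part of other tissue in these levels was not tested.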

How the data were processed

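Per the file headers, the deposited array files hold processed signals, a linear intensity per spot with background subtracted and no scaling between arrays, made with Agilent Feature Extraction 11.0.1.1, while the submitters' processing notes name version 9.5. The deposited series table holds the authors' log2 values, which correlated with the log2 processed signal at 1.00 on each array and have column medians of −3.04 to −2.84. It was used as an alternative, and what was done beyond the 75th percentile centring is not given in the sources used here.

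Of 15646 features, 536 controls were left out, as were 48 spots flagged as outliers (0 on serpin probes), and no spot was saturated. Each array's 75th percentile was subtracted from its log2 signals, and repeated spots of a probe were then averaged. The 10985 probes with a signal well above background on 4 or more of the 8 arrays were tested. limma 3.58.1 in R 4.3.3 (with version 1.17.8 of the package data.table) fitted dose with the animal as a block, 2-sided, with Benjamini-Hochberg adjustment over all tested probes at 0.05, and gave the F-test between animals. The fit was also run on simulated data with known changes. No conclusion here rests on that run, and the size of change that the fit would call is not given.

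Samples were grouped by the dose and cattle number in the titles. The pairing comes from the labels, since each animal received both doses. Deviations of the 4 g and 0 g arrays of an animal from their group means correlated at −0.19, −0.18, 0.21 and 0.13 in cattle 19, 20, 23 and 24. In each case the 4 g array correlated more strongly with the 0 g array of another animal (19 with 20 at 0.62, 20 with 24 at 0.11, 23 with 24 at 0.55 and 24 with 19 at 0.23), so the block rests on the labels alone. The pair at 0.62 is made of the 2 dimmest arrays, and the part of brightness in that value was not tested. All arrays are of 1 slide. Slide row 1 held cattle 19 and 20 and row 2 held cattle 23 and 24, so the row coincides with those animals. Coordinates are those of the files (UMD 3.1). The files' probe starts were checked on 7 overlapping probe pairs of 1 accession, of which 6 were apart by the same number of bases in the genome. This checks the spacing of the starts and cannot show the end from which they count. Names were checked in a table of RefSeq genes (assembly ARS-UCD2.0), of which no coordinate was used: 27 serpin probes matched by accession, 6 by symbol, and 2 kept the files' name. The values of 1 tested member are not reported here, though it is part of the counts, medians and correlations.

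The members and gene lists were chosen with earlier results of these data known. Values on every array are given for tested serpins with a log2 difference of at least 0.58 in size, the 4 smallest p in each direction, the 6 smallest p between animals, an array over 2 log2 units from the others, and a fixed set of plasma, hormone carrier, clotting, complement and matrix serpins. From each list up to 3 genes with the smallest p are given. SERPINA11, SERPINB6, SERPINB9, SERPINB10, the untested members and the list genes F2, F10, PLG, HP, KRT6A, CA1, A2ML1 and ELANE outside that rule were chosen after their values were seen. Alternatives were normexp, quantile and median scaling, the authors' table, other probe filters, no block, robust variances, array weights, and leaving out animals or arrays.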

Additional observations from a re-analysis of the deposited data

Results flagged for a closer look

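Within each dose, a level was singled out where 1 of the 4 arrays lay far from the other 3 relative to the range of the group. This held in 6 of 70 groups of serpin values. The cut-off would flag about 1 in 20 independent groups of normal values. These groups share the same arrays, so no excess over chance is read from the count. On the 4 g array of cattle 19, one of the 2 dimmest arrays, 4 serpin probes stood apart. SERPINB6 (−0.44, nearest other 1.60), the SERPINA3-7 probe starting at 702 (3.17, nearest other 5.77) and SERPINA11 (0.88, nearest other 2.82) were low there, and SERPINA5 was high (6.75, nearest other 6.25). The first 3 probes start before 1258.5 in their transcripts and SERPINA5 starts later. On the 0 g array of cattle 19, SERPINA3-6 was high at 5.93, with the nearest other array at 5.49. On the 0 g array of cattle 23, SERPINI2 stood at 5.78, with the nearest other 0 g array at −5.75, and that array held the pancreatic acinar transcripts.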

How the results depend on the processing

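The count of 0 called serpins was the same under all 18 alternatives, and so was the count of 0 called probes, except that 5 probes, none of them a serpin, were called without the 2 dimmest arrays and without pairing. At an unadjusted p under 0.05 the whole array had 120 probes as reported, 104 without the replicate block, 17 with normexp, 57 to 408 when 1 animal was left out, 403 with array weights, 450 for cattle 23 and 24 alone and 306 without the 2 dimmest arrays. The share of these that were higher at 4 g was 31.7% as reported, 45.4% with quantile normalization and 37.2% with centring on the median. The median serpin difference ran from −0.14 to 0.22 when 1 animal was left out, and no serpin was called then. The replicate block changed no call: without it, 0 serpins and 0 probes were called. With 1 array per animal and dose and no serpin value missing, leaving out the block cannot change a serpin difference or its sign. Under all alternatives that tested it, SERPINE2 was lower at 4 g, between −1.26 and −0.19, the smallest with normexp. SERPINE2 keeps the same difference by design without the block, without the filter and with robust variances. At an unadjusted p under 0.05 it was lost with normexp and for cattle 19 and 20 alone, and the count of such serpins ran from 0 to 4 over all alternatives.

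Small serpin differences changed sign, and none of the values that follow passed the adjusted threshold. With normexp these were SERPINA3-3 0.026, SERPINB9 −0.089 and SERPINF1 0.051. With quantile normalization this was SERPINA3-3 0.098, and with centring on the median SERPINA3-3 0.021 and SERPINF1 0.015. With array weights they were SERPINA11 0.19, SERPINA3-2 0.058, SERPINA3-6 0.063, SERPINA3-7 (start 702) 0.29, SERPINA7 0.020, SERPIND1 0.17 and SERPING1 0.060. For cattle 19 and 20 alone (slide row 1) they were SERPINA3 −0.41, SERPINB1 −0.049, SERPINB10 −0.14, SERPINB6 −0.25 and SERPINF1 0.10. For cattle 23 and 24 alone (slide row 2) they were SERPINA11 0.26, SERPINA3-2 0.17, SERPINA3-3 0.062, SERPINA3-6 0.20, SERPINA3-7 (start 1177) 0.16, SERPINA3-7 (start 702) 0.56, SERPINA3-8 0.19, SERPINA7 0.18, SERPINB5 0.089, SERPIND1 0.36 and SERPING1 0.17. Without pairing and without the 0 g array of cattle 23 they were SERPINA1 −0.044, SERPINA3 −0.010 and SERPINA6 −0.011. Without pairing and without the 0 g array of cattle 19 they were SERPINA11 0.062, SERPINA3-2 0.018, SERPINA3-6 0.014, SERPINA3-7 (start 702) 0.19, SERPINB9 −0.15, SERPIND1 0.096, SERPINF1 0.053 and SERPING1 0.030. Without pairing and without the 2 dimmest arrays they were SERPINA1 −0.11, SERPINA11 0.042, SERPINA3-6 0.19, SERPINA3-7 (start 1177) 0.075, SERPINA3-7 (start 702) 0.24, SERPINA3-8 0.034, SERPINA7 0.022, SERPIND1 0.14, SERPINF2 −0.00051 and SERPING1 0.079. The cause was not tested. When 1 animal at a time was left out, the ranges that crossed 0 were SERPINA11 −0.60 to 0.59, SERPINA12 −0.40 to 0.098, SERPINA3 −0.14 to 0.62, SERPINA3-2 −0.44 to 0.38, SERPINA3-3 −0.17 to 0.20, SERPINA3-6 −0.36 to 0.35, SERPINA3-7 (start 1177) −0.37 to 0.18, SERPINA3-7 (start 702) −0.73 to 0.89 and SERPINA3-8 −0.57 to 0.30. The others were SERPINA7 −0.34 to 0.23, SERPINB5 −0.52 to 0.064, SERPINB6 −0.32 to 1.02, SERPINB9 −0.25 to 0.50, SERPINC1 −0.013 to 0.25, SERPIND1 −1.14 to 1.01, SERPINF1 −0.083 to 0.040, SERPINF2 −0.029 to 0.17 and SERPING1 −0.36 to 0.34. Both other filters and the robust variances cannot change a difference, so its sign was fixed there. The authors' table holds nearly the same values, and 0 of the tested serpins changed sign under it.

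SERPINE2 was not well above background on 1 array, and the untested members on 5 or more. The period of each dose was not in the labels and could not be a term of the fit.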

Other observations

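Adipocyte genes were also read on these arrays. FABP4, which carries fatty acids in adipocytes, stood at −3.19, −1.41, −1.01 and −4.71 at 4 g in cattle 19, 20, 23 and 24, against −1.23, 1.17, 1.95 and −2.45 at 0 g. It was lower in 4 of 4 animals, as SERPINE2 was, and did not pass the adjusted threshold. Of the 8 tested adipocyte genes, 3 were higher and 5 lower at 4 g, and 1 had an unadjusted p under 0.05 in limma, against 1.09% of all tested probes. Endothelial genes had 15 of 18 tested members lower at 4 g, with a median of −0.19, and 0 at an unadjusted p under 0.05. Macrophage and Kupffer cell genes had 7 of 9 tested members lower, with a median of −0.12. Hepatocyte genes had 16 of 23 tested members higher and 7 lower, with a median of 0.04. Rumen epithelium genes had 2 of 8 tested members higher and 6 lower, squamous epithelium genes 2 of 7 higher and 5 lower, and all 13 tested pancreatic acinar genes were lower at 4 g, with a median of −9.88 in cattle 23 and medians of −0.77 to 0.43 in the other animals.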
